A study of Rattus norvegicus with 12 samples.

Results

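Aminoacyl-tRNA synthetases were followed in the renal cortex of rats given bromodichloromethane (BDCM), a trihalomethane that forms when drinking water is chlorinated and that is toxic to the kidney of rodents. The family was taken as 35 genes, 19 for cytosolic enzymes (symbols ending in 1, with Farsa and Farsb) and 16 for mitochondrial enzymes (symbols ending in 2), each matched to array probes through its RefSeq transcript. Of these, 31 genes had a matched probe and were tested, 18 cytosolic and 13 mitochondrial, among 34218 features tested in all, of which 12208 were named genes. Gars1, Iars2, Lars2 and Mars2 had no probe matched here and carry no value. The 31 genes were read by 63 probes, every one of them well above background on all 12 arrays, so no member was lost to the filter on dim probes.

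Male Sprague-Dawley (Crl:CD(SD)) rats, bought at 5 weeks of age and kept on basal diet, received corn oil or 200 mg/kg of BDCM per day in 2 experiments. Dosing lasted 4 weeks, and the animals were bled 24 h after the last dose, under CO2-O2 in one experiment (B92) and under isoflurane in the other (B103). This gave 4 groups of 3 animals, oil with CO2-O2, BDCM with CO2-O2, oil with isoflurane and BDCM with isoflurane, and 1 one-colour Agilent array per animal. All animals were male and anaesthetised and 1 dose was used, and anaesthesia and experiment cannot be told apart. The experiments shared neither a slide nor a day of scanning. Levels are log2 processed signals relative to the 75th percentile of the same array, so that a level belongs to 1 probe and is compared between animals only.

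Each synthetase joins 1 amino acid to its tRNA, the step that gives the genetic code its meaning and supplies the ribosome with charged tRNA. Cytosol and mitochondria mostly use separate enzymes from separate nuclear genes. Eprs1 carries both glutamate and proline activities, Kars1 and Gars1 serve both compartments, and phenylalanine in the cytosol needs the alpha subunit Farsa together with the beta subunit Farsb. Several cytosolic enzymes sit in a multi-synthetase complex held by the scaffold proteins Aimp1, Aimp2 and Eef1e1. When amino acids run short or protein folding in the endoplasmic reticulum fails, kinases of eIF2 alpha slow translation while the factor ATF4 is made, and ATF4 with C/EBP partners activates genes through a composite promoter element. Many cytosolic synthetase genes are known ATF4 targets.

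The promoter windows of the family are shown first because the core of that element was found in 7 cytosolic members. In RefSeq's GRCr8 windows, from 250 bases before to 50 after each start site, TGATGNAA was searched on both strands. TGATGCAA is a special case of it and was counted apart. Among genes with a window, 7 of 17 cytosolic ones (41.2%) and 0 of 16 mitochondrial ones held the motif. It was held by 4.16% of all 27457 genes with a window and by 2.54% of the tested named genes. At shares this low, 0 of 16 genes is not unusual. All 7 cytosolic genes, Aars1, Cars1, Iars1, Mars1, Nars1, Tars1 and Yars1, held the stricter TGATGCAA, which 0.827% of all genes with a window held. Gars1 and Rars1 had no window in the table. The sites of 5 of the genes follow on the strand that reads TGATGCAA, with the 8 matched bases in capitals. Positions count from the start site as 1, with no position 0.
Cars1, chr1:208225334-208225363, plus strand, motif at 18 to 25: tttccagaatcTGATGCAAccgcggcgccg
Iars1, chr17:15193658-15193687, plus strand, motif at -24 to -17: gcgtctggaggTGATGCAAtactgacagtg
Mars1, chr7:65023752-65023781, plus strand, motif at -17 to -10: ggagcccacgcTGATGCAAccggaacgggc
Tars1, chr2:62114811-62114840, plus strand, motif at -27 to -20: agctaaccagcTGATGCAAcgggacgccag
Yars1, chr5:146820190-146820212, plus strand, motif at 39 to 46, cut short by the end of the window: acgagctcagcTGATGCAAcctg

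Nars1 held its match at -14 to -7. In these 6 genes the match lay within 50 bases of the start site. Yars1 and Nars1 carried TGATGCAA on the strand of the gene, and Cars1, Iars1, Mars1 and Tars1 carried it on the opposite strand. The 250 bases upstream of Iars1, the gene for the isoleucine enzyme, are given as a whole example on the strand of the gene, where the motif reads TTGCATCA (capitals).
Iars1, chr17:15193653-15193902, minus strand: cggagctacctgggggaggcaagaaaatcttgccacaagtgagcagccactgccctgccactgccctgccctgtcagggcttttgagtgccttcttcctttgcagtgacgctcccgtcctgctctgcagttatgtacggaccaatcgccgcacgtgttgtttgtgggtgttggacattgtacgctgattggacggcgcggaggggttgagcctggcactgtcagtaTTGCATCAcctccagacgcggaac

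A match of letters is a description of the window and shows no binding. Hars1 and Hars2 lie head to head on opposite strands, and their windows share 243 bases, so they count as nearly 1 stretch of sequence in these shares.

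BDCM was accompanied by higher transcript levels of nearly the whole cytosolic set and of a minority of the mitochondrial set, and by lower levels of no member. In the mean of both experiments 16 of the 18 cytosolic genes rose and 0 fell, with a median log2 difference of 0.68 and a range from 0.01 to 1.54. Of the 13 mitochondrial genes 5 rose and 0 fell, with a median of 0.16 and a range from -0.06 to 0.42. For comparison, 17.7% of all features tested were higher in that mean and 20.4% were lower (38.1% in either direction), and the median over all features was -0.04. A gene counts as having risen or fallen at an adjusted p under 0.05 in limma, with Benjamini-Hochberg adjustment over all 34218 features. The plot of effects by gene shows cytosolic genes filling the upper end of the order, down to Rars1. Tars1, Kars1 and Qars1 lie among the mitochondrial genes that rose, and Farsa and Hars1 lie near 0.

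**Figure D1:**
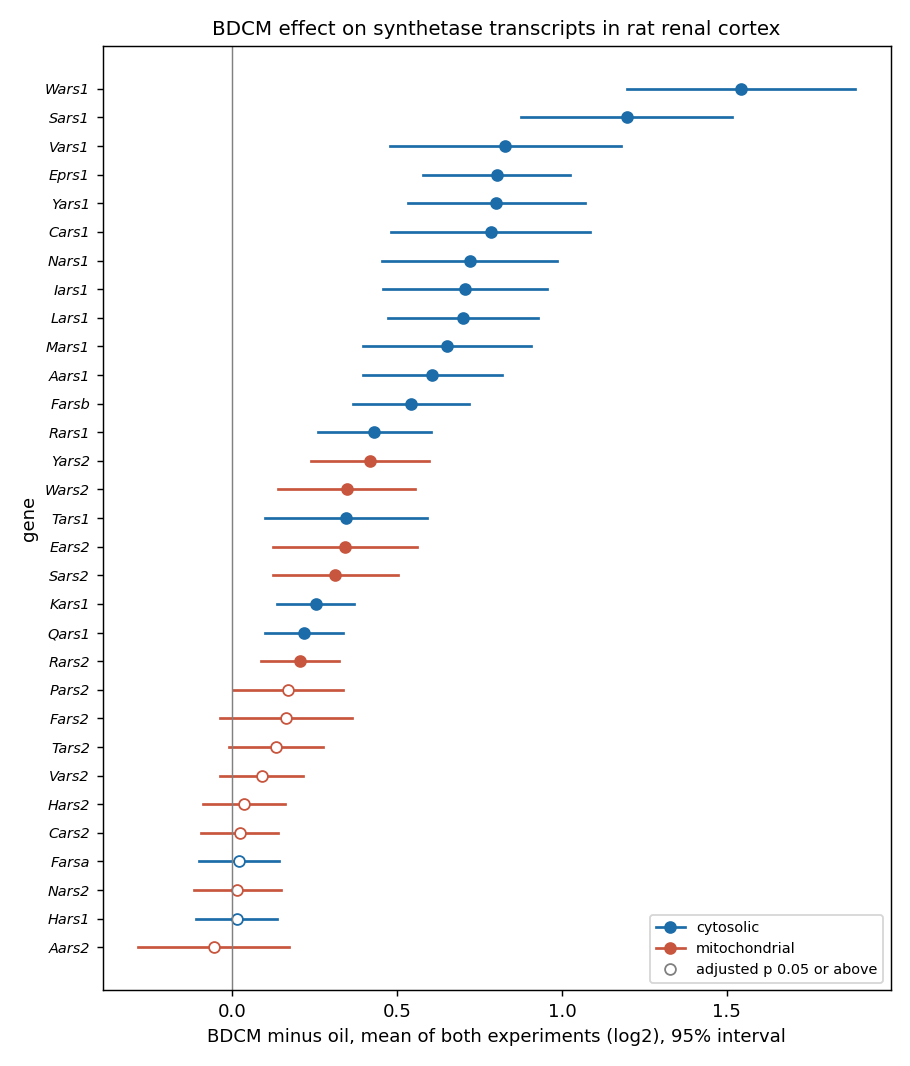
Difference between BDCM and oil rats in log2 units, mean of both experiments, for 31 synthetase genes ordered by size, with bars for the 95% interval from limma. Blue marks cytosolic and red mitochondrial genes, and open points did not pass. The 13 largest differences, from Wars1 at 1.54 to Rars1 at 0.43, all belong to cytosolic genes.

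Wars1, the cytosolic tryptophan enzyme, changed most. Its levels were 3.66, 3.66 and 3.70 in the oil rats of the CO2-O2 experiment and 4.61, 5.35 and 5.16 in the BDCM rats. Under isoflurane they were 3.50, 3.43 and 3.54 with oil and 4.93, 5.71 and 4.98 with BDCM. Every BDCM animal thus stood above every oil animal of either experiment. The mean difference was 1.54 (SE 0.16), a fold of 2.92 with a 95% interval from 2.29 to 3.70 (adjusted p = 4.12e-05, limma). All 3 Wars1 probes gave values between 1.37 and 1.57.

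Sars1, the cytosolic serine enzyme, which also charges the tRNA for selenocysteine, came next. It read 1.12, 1.13 and 1.15 in oil rats and 2.08, 2.25 and 2.26 in BDCM rats under CO2-O2. In the isoflurane experiment it read 1.33, 1.28 and 1.43 with oil and 2.41, 3.28 and 2.33 with BDCM. The groups did not overlap in either experiment, and BDCM animal 2 of the isoflurane experiment was the highest of all 12. The mean difference was 1.20 (SE 0.14), or 2.29-fold (95% interval 1.84 to 2.86, adjusted p = 0.000152).

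Vars1, the valine enzyme, had the largest gap between experiments among the cytosolic genes. Its levels were -3.01, -3.09 and -3.23 with oil and -2.70, -2.38 and -2.72 with BDCM under CO2-O2, and -3.57, -3.54 and -3.32 with oil and -2.41, -1.76 and -2.82 with BDCM under isoflurane. The BDCM animals were above the oil animals in both experiments. The mean difference was 0.83 (SE 0.16, adjusted p = 0.00238), made of 0.51 under CO2-O2, which did not pass (adjusted p = 0.139), and 1.15 under isoflurane (adjusted p = 0.00466). The probe was dim relative to its array, and it was the only one for the gene.

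Eprs1, the glutamate and proline enzyme of the multi-synthetase complex, read 3.82, 3.76 and 3.72 with oil and 4.44, 4.57 and 4.54 with BDCM under CO2-O2. Under isoflurane it read 3.62, 3.75 and 3.71 with oil and 4.38, 4.94 and 4.32 with BDCM. The BDCM groups lay apart from both oil groups, and the effects of the experiments were close, 0.75 and 0.85 on the log2 scale. The mean difference was 0.80 (SE 0.10), a fold of 1.74 with a 95% interval from 1.49 to 2.03 (adjusted p = 0.000191).

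Yars1, the tyrosine enzyme, read 0.10, 0.01 and 0.06 with oil and 0.50, 0.81 and 0.68 with BDCM under CO2-O2, then 0.06, -0.07 and 0.08 with oil and 0.85, 1.48 and 0.73 with BDCM under isoflurane. Cars1, the cysteine enzyme, read -0.19, -0.55 and -0.41 with oil and 0.20, 0.36 and 0.26 with BDCM under CO2-O2, then -0.21, -0.33 and -0.26 with oil and 0.50, 1.16 and 0.28 with BDCM under isoflurane. In both genes all BDCM values lay above all oil values. Their mean differences were 0.80 (SE 0.12, adjusted p = 0.000617) for Yars1 and 0.78 (SE 0.14, adjusted p = 0.00139) for Cars1.

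Nars1, which charges asparagine tRNA, read -0.46, -0.63 and -0.58 with oil and 0.01, 0.10 and 0.16 with BDCM under CO2-O2, then -0.48, -0.38 and -0.41 with oil and 0.15, 0.85 and 0.11 with BDCM under isoflurane. Iars1, which charges isoleucine tRNA, read 2.00, 1.98 and 2.00 with oil and 2.54, 2.65 and 2.64 with BDCM under CO2-O2, then 2.00, 2.09 and 1.97 with oil and 2.64, 3.27 and 2.53 with BDCM under isoflurane. Neither gene had overlapping groups, and the oil groups of the experiments stood close together. The mean differences were 0.72 (SE 0.12, adjusted p = 0.00106) for Nars1 and 0.71 (SE 0.11, adjusted p = 0.000869) for Iars1.

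**Figure D2:**
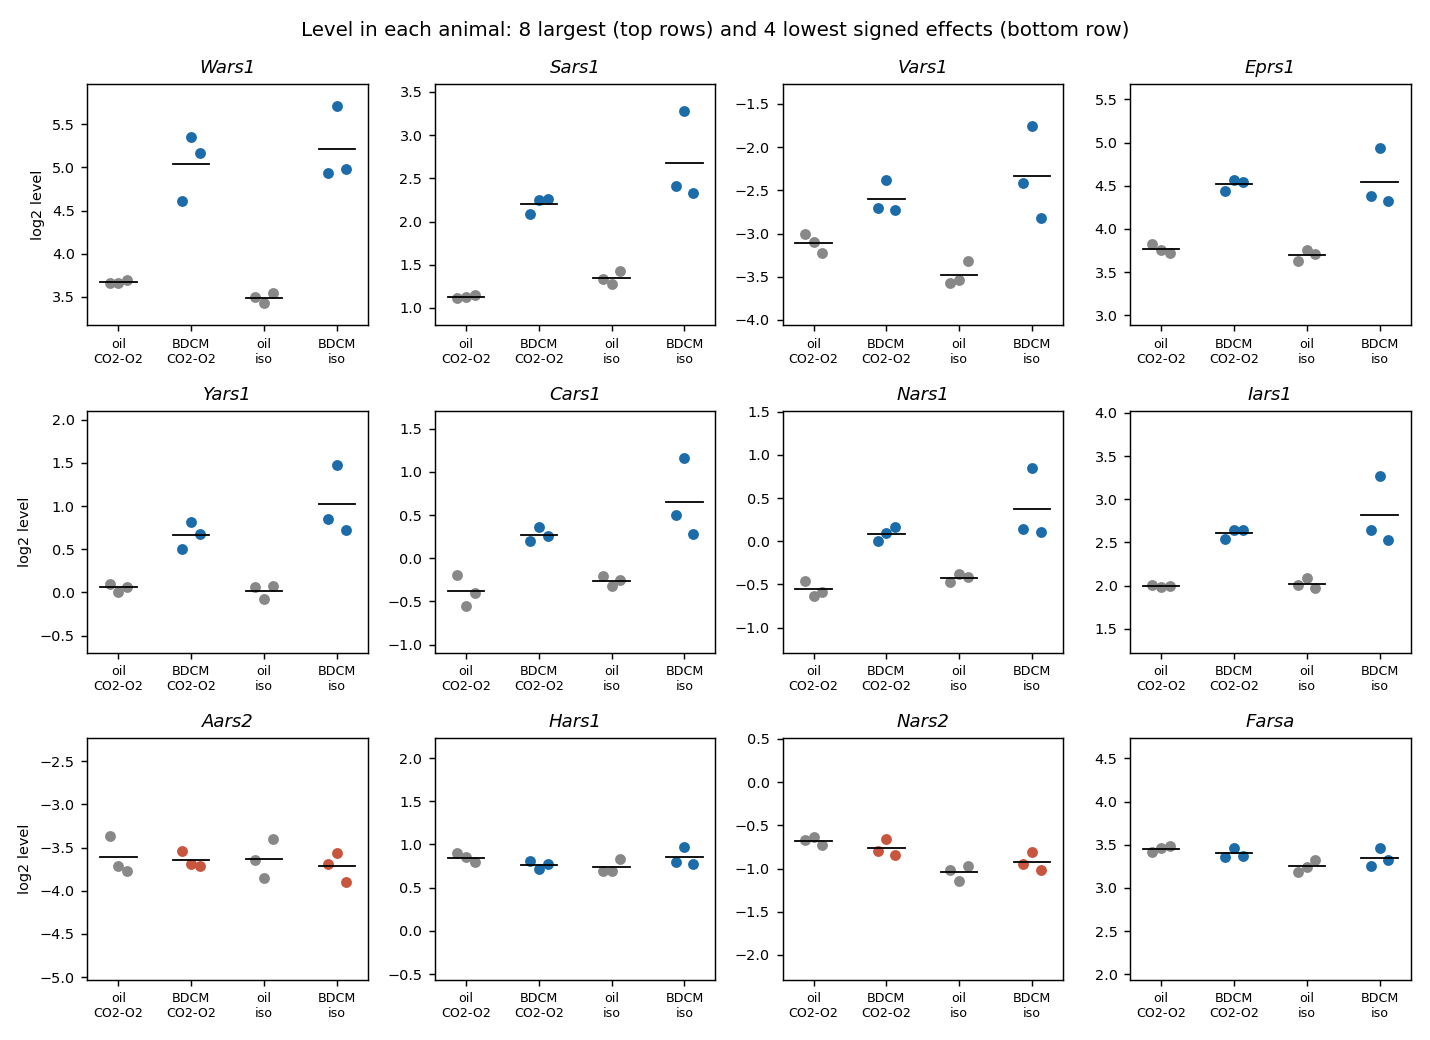
Level of 12 synthetase genes in each animal, as log2 signal relative to the 75th percentile of its array, in the 4 groups of 3, with a black line at the group mean. Grey points are oil rats, coloured points BDCM rats (blue cytosolic, red mitochondrial genes), and each panel spans the same 2.8 log2 units. In the 8 panels of the upper rows the BDCM animals lie above the oil animals in both experiments, and in the 4 panels of the bottom row the groups overlap in both experiments.

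The next 8 cytosolic genes rose by less. Lars1 (leucine) differed by 0.70, Mars1 (methionine) by 0.65, Aars1 (alanine) by 0.61 and Farsb by 0.54 log2 units, with adjusted p from 0.000517 to 0.00156. Rars1 (arginine) differed by 0.43, Tars1 (threonine) by 0.34, Kars1 (lysine) by 0.25 and Qars1 (glutamine) by 0.22, with adjusted p from 0.00167 to 0.032. Tars1 held this call least firmly. It lost the call in 11 of 28 alternatives, among them leaving out any 1 oil animal of either experiment or BDCM animal 2 or 3 of the CO2-O2 experiment. Its adjusted p reached 0.11 with normexp background correction. A dimmer probe of Qars1 gave 0.06 (adjusted p = 0.43), against 0.22 for its brightest probe.

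The rises were found across the structural groups of the enzymes. Class I synthetases, built on a Rossmann fold, rose in 9 of 9 cytosolic genes, and class II synthetases, built around an antiparallel beta sheet, in 6 of 8. Their medians were 0.71 and 0.44. Eprs1, which holds domains of both classes, was counted in neither. Of the genes for enzymes of the multi-synthetase complex 7 of 7 rose, with a median of 0.65, and of the others 9 of 11 rose, with a median of 0.72. The 7 genes with TGATGNAA in their window all rose, with differences from 0.34 to 0.80 and a median of 0.71. The 10 tested genes with a window but no match had a median of 0.62 and ranged from 0.01 to 1.54, and Wars1, Sars1, Vars1 and Eprs1, the 4 genes with the largest effects, were among these. Over all tested named genes with a window, 23.7% of those with TGATGNAA and 19.6% of those without were called higher. For TGATGCAA the share was 37.3%, over 67 genes, 7 of which were the cytosolic synthetases themselves.

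Farsa and Hars1 were the 2 cytosolic genes that did not pass. Farsa encodes the catalytic alpha subunit of the phenylalanine enzyme. It read 3.42, 3.46 and 3.49 with oil and 3.36, 3.46 and 3.37 with BDCM under CO2-O2, then 3.18, 3.24 and 3.33 with oil and 3.26, 3.46 and 3.32 with BDCM under isoflurane. Groups overlapped in both experiments. Its mean difference was 0.02, with a 95% interval from -0.10 to 0.14 (adjusted p = 0.802), and its dimmer probe gave 0.04. For Farsb, the partner subunit in the same enzyme, the difference was 0.54 with an interval from 0.37 to 0.72 (adjusted p = 0.000522), and its 3 probes gave 0.43 to 0.54. The intervals of the 2 subunits do not meet. The difference between the subunits was not itself tested.

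Hars1, the histidine enzyme, read 0.90, 0.85 and 0.80 with oil and 0.81, 0.72 and 0.77 with BDCM under CO2-O2, then 0.69, 0.70 and 0.83 with oil and 0.80, 0.98 and 0.77 with BDCM under isoflurane. The groups overlapped in both experiments. Its mean difference was 0.01 (95% interval -0.11 to 0.14, adjusted p = 0.869). Hars2, the mitochondrial histidine gene that shares its promoter region head to head, gave 0.03 (95% interval -0.09 to 0.16, adjusted p = 0.654). Neither histidine gene therefore passed, and the intervals leave room for a small change in either direction.

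Among mitochondrial genes, Yars2 (tyrosine) rose by 0.42, Wars2 (tryptophan) by 0.35, Ears2 (glutamate) by 0.34, Sars2 (serine) by 0.31 and Rars2 (arginine) by 0.20 log2 units, with adjusted p from 0.0026 to 0.0199. The other 8, Pars2, Fars2, Tars2, Vars2, Hars2, Cars2, Nars2 and Aars2, gave values from 0.17 down to -0.06. Yars2 differed by 0.42 in each experiment. It read -0.20, -0.40 and -0.54 with oil and 0.10, 0.13 and -0.13 with BDCM under CO2-O2, then -0.30, -0.22 and -0.30 with oil and 0.10, 0.32 and 0.02 with BDCM under isoflurane. Yars2 and Rars2, 2 of 13 mitochondrial genes, had all BDCM animals above all oil animals in both experiments. This is near the 13.5% of all features so separated. Ears2 was separated under CO2-O2 and overlapped under isoflurane.

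The mitochondrial count moved with the processing. The count of 5 fell to 3 when the probes of a gene were averaged, to 3 without the pair of isoflurane animals described below, and to 2 with the replicate number as a block. The second Wars2 probe, dimmer than the first, gave -0.01 (adjusted p = 0.967). Ears2 had 4 probes, of which the brightest gave 0.34 and the next 0.32 (adjusted p = 0.0339). The 2 dimmest Ears2 probes gave 0.14 (adjusted p = 0.502) and -0.08 (adjusted p = 0.768), and the mean of the 4 gave 0.18, which did not pass (adjusted p = 0.216). The 3 Pars2 probes differed in sign, from -0.16 to 0.17, with none past the threshold. One of the 3 Tars2 probes passed (0.18, adjusted p = 0.0253), though not the brightest. Over all probes, 32 of 38 cytosolic ones were higher and all 38 were positive, against 8 of 25 higher and 18 positive among mitochondrial ones, with 0 lower in both.

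By signed value, the 4 lowest of the family were Aars2, Hars1, Nars2 and Farsa. Aars2, the mitochondrial alanine enzyme, read -3.36, -3.71 and -3.77 with oil and -3.54, -3.69 and -3.71 with BDCM under CO2-O2, then -3.64, -3.85 and -3.41 with oil and -3.69, -3.56 and -3.90 with BDCM under isoflurane. Nars2, the mitochondrial asparagine enzyme, read -0.67, -0.63 and -0.73 with oil and -0.79, -0.66 and -0.84 with BDCM under CO2-O2, then -1.01, -1.14 and -0.97 with oil and -0.95, -0.81 and -1.02 with BDCM under isoflurane. Groups overlapped in both genes, although the Nars2 levels of both isoflurane groups lay below those of the CO2-O2 groups except for 1 value. The mean differences were -0.06 (95% interval -0.29 to 0.17) for Aars2 and 0.02 (95% interval -0.12 to 0.15) for Nars2.

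For the same amino acid, the cytosolic gene had the larger effect in 10 of 12 pairs, where Fars2 was set against Farsa and Farsb in turn. In 10 pairs it did so in both experiments, and the median gap in the mean was 0.52 log2 units. The largest gap was tryptophan, 1.54 for Wars1 against 0.35 for Wars2. Wars2 read -0.43, -0.74 and -0.61 with oil and -0.49, -0.64 and -0.68 with BDCM under CO2-O2, then -0.96, -0.89 and -1.08 with oil and -0.28, -0.02 and -0.53 with BDCM under isoflurane, so that its groups overlapped in the former experiment and not in the latter. For serine the values were 1.20 for Sars1 and 0.31 for Sars2. Sars2 read 0.86, 0.63 and 0.93 with oil and 0.83, 1.18 and 0.89 with BDCM under CO2-O2, then 0.89, 0.78 and 0.87 with oil and 1.25, 1.48 and 1.19 with BDCM under isoflurane, which again separated the groups in the isoflurane experiment alone.

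Cysteine gave the third gap, 0.78 for Cars1 against 0.02 for Cars2. Cars2 read 2.42, 2.48 and 2.52 with oil and 2.45, 2.58 and 2.38 with BDCM under CO2-O2, then 2.48, 2.39 and 2.41 with oil and 2.47, 2.53 and 2.43 with BDCM under isoflurane, with overlap in both. Valine, asparagine and alanine followed, with gaps of 0.74, 0.70 and 0.66. The exceptions were histidine and the pair of Farsa with Fars2, with gaps of -0.02 and -0.14. Differences between the genes of a pair were not tested, and the plot of pairs shows which intervals meet.

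**Figure D3:**
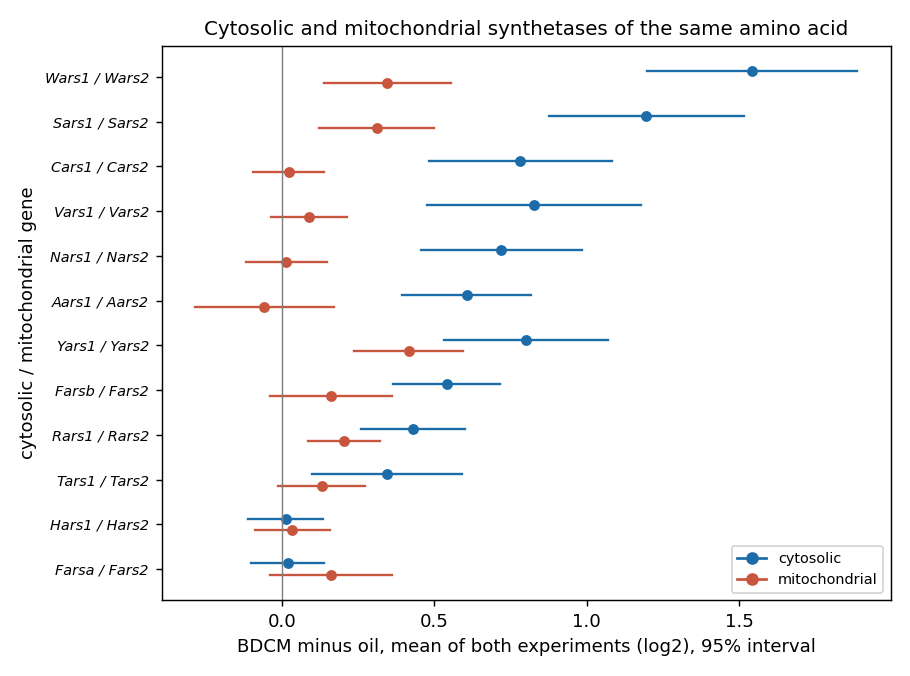
Difference between BDCM and oil rats (log2, mean of both experiments) with 95% intervals for the cytosolic (blue) and mitochondrial (red) gene of each amino acid, ordered by the gap between them. Cytosolic points lie to the right in the upper 10 rows, from a gap of 1.20 for tryptophan to 0.21 for threonine, and to the left for histidine and Farsa.

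Each experiment was also read alone. Under CO2-O2 11 of 18 cytosolic genes rose, with a median of 0.52, and 1 of 13 mitochondrial genes, Yars2, with a median of 0.08. Over all features 10% were higher and 9.89% lower there (19.9% in all). Under isoflurane 15 of 18 cytosolic genes rose, with a median of 0.78, and 4 of 13 mitochondrial genes, Wars2, Sars2, Yars2 and Rars2, with a median of 0.19. Over all features 13.2% were higher and 12.9% lower (26.1% in all). In both experiments 11 cytosolic genes and Yars2 were called higher, against 8.58% of all features. All BDCM animals stood above all oil animals in both experiments for 15 of 18 cytosolic and 2 of 13 mitochondrial genes, against 13.5% of all features. Taken alone, the CO2-O2 experiment had 15 cytosolic and 3 mitochondrial genes so separated (18.3% of all features), and the isoflurane experiment 16 and 7 (20.5%).

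The CO2-O2 count of 11 rested on single animals more than the others did. It was 3 without oil animal 2, oil animal 3, BDCM animal 2 or BDCM animal 3 of that experiment, and 7 without oil animal 1. Wars1 kept its CO2-O2 call in all 29 alternatives that gave it a value, and Sars1 and Eprs1 in all but the fixed slide block, where the adjusted p was 0.0554 and 0.0541. The mitochondrial count of 4 under isoflurane was 1 without BDCM animal 2 and 2 without any 1 oil animal of that experiment. The mitochondrial count of 1 under CO2-O2 was 0 without oil animal 2 or 3 or BDCM animal 1.

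The effect was numerically larger under isoflurane for 18 of 18 cytosolic and 11 of 13 mitochondrial genes. The test of that difference passed for 0 of the 31 genes and for 0 of all 34218 features. At an unadjusted p under 0.05 in limma, 5.06% of all features and 1 member, Wars2, would count. Its difference was 0.71 (SE 0.19, adjusted p = 0.935), from -0.01 under CO2-O2 to 0.70 under isoflurane. Vars1 came next, with a difference of 0.64 (SE 0.32, adjusted p = 0.935). Across genes, the effects of the experiments, which share no animals, had a Pearson correlation of 0.95 over the 18 cytosolic genes and 0.35 over the 13 mitochondrial ones. Genes are not independent replicates and share the same arrays, so these values describe the plot of both experiments and carry no test.

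**Figure D4:**
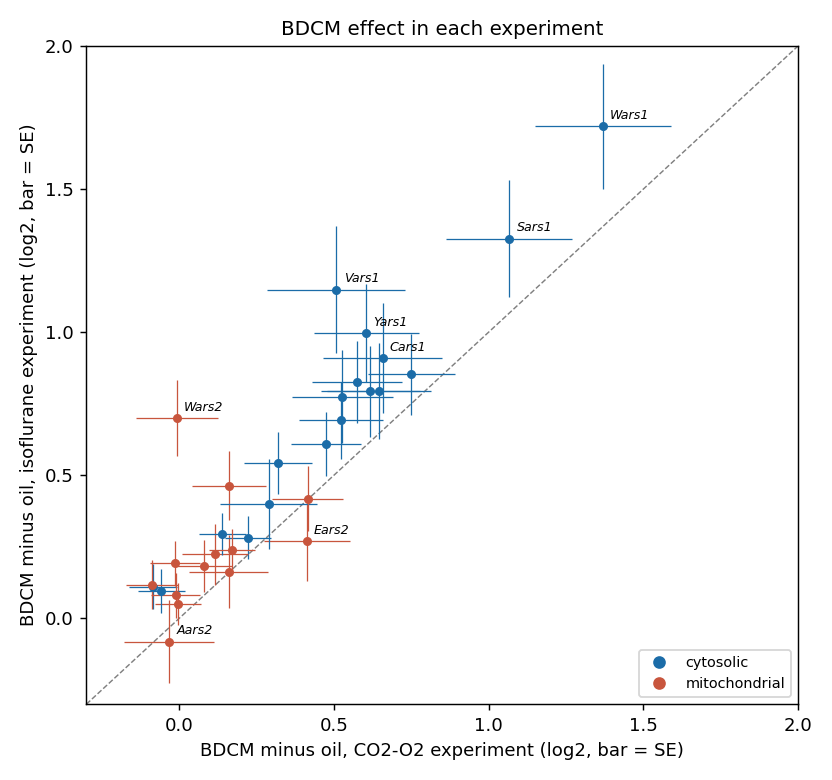
Log2 difference between BDCM and oil rats in the CO2-O2 experiment (horizontal axis) and the isoflurane experiment (vertical axis), with SE bars, for 18 cytosolic (blue) and 13 mitochondrial (red) genes, with a dashed line where both are equal. All 18 cytosolic points lie above the line, and Wars2 sits near 0 under CO2-O2 and at 0.70 under isoflurane.

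Of the isoflurane rats, 1 stood apart. BDCM animal 2 was the highest of its group in 18 of 18 cytosolic genes, and it stood on average 1.09 log2 units above the oil mean, against 0.60 and 0.50 for animals 1 and 3. The BDCM animals of the CO2-O2 experiment stood 0.41, 0.58 and 0.53 above their oil mean. For mitochondrial genes the 6 distances ran from 0.03 to 0.32. In each BDCM animal 15 to 18 of the 18 cytosolic genes exceeded all 3 oil animals of its experiment, and 3 to 11 of the 13 mitochondrial genes did. These counts per animal were not made over all features. Whether BDCM animal 2 stood apart over the whole array was therefore not tested. Without isoflurane BDCM animal 2, 16 cytosolic and 5 mitochondrial genes were higher in the mean of both experiments, and 13 and 1 in the isoflurane experiment alone.

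Slides did not hold the groups evenly. Within slide 1 the lone BDCM animal of the CO2-O2 experiment there (animal 2) lay above the mean of the 3 oil animals in 17 of 18 cytosolic genes, with a median difference of 0.56, and in 11 of 13 mitochondrial genes, with a median of 0.13. Within slide 4, BDCM animals 1 and 2 of the isoflurane experiment lay above the single oil animal in 18 of 18 cytosolic genes, with a median of 0.83, and in 12 of 13 mitochondrial genes, with a median of 0.14. The other slides held 1 group each. With slide as a fixed block, 2 cytosolic genes passed under CO2-O2 and 8 under isoflurane, and 5 passed under CO2-O2 when the block was the scan day. With slide as a random block the CO2-O2 count was 10.

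The tissue carried its label. All 8 proximal tubule markers were well above background on every array, and all 8 fell under BDCM in the mean of both experiments, by 0.25 to 1.31 log2 units. Their summed linear level was 1539 to 1656 with oil and 937 to 1187 with BDCM under CO2-O2, and 1820 to 1913 with oil and 846 to 1278 with BDCM under isoflurane, in multiples of the 75th percentile. In bulk cortex, fewer cells of a type and less RNA per cell cannot be told apart. Of the other nephron markers 2 of 5 fell, and of 8 leukocyte markers 1 rose. Over all features 20.4% were lower and 17.7% higher in the mean of both experiments. The summed leukocyte levels were 69.6 to 113 with oil and 74.1 to 126 with BDCM. The part of these shifts in the synthetase values was not tested.

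Hepatocyte transcripts varied between animals. Of 15 such markers 13 were tested, and Tat was not well above background on any array of any group. In the mean of both experiments 2 rose and 3 fell, against 17.7% of all features higher and 20.4% lower. The summed level of the 15 markers was 17.1 to 28.2 with oil and 26.5 to 31.6 with BDCM under CO2-O2. Under isoflurane it was 15.2 to 16.6 with oil and 16.5 to 20.9 with BDCM. Alb ranged from -8.07 to 1.66 on the log2 scale, and every CO2-O2 animal was at -1.44 or higher. Hepatocyte markers were lower in the isoflurane experiment, by a median of -1.31 with oil (1 of 13 called lower) and -1.92 with BDCM (6 of 13). Over all features 3.56% and 5.25% were called lower in these comparisons. Within the isoflurane experiment oil animal 3 (-2.97) and BDCM animal 1 (-0.69) stood above the rest, which were at -5.72 or lower. Without these animals 15 cytosolic and 3 mitochondrial genes were higher in the mean of both experiments, 8 and 0 under CO2-O2, and 13 and 1 under isoflurane.

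Between experiments, few members differed in like-treated rats. With oil, Nars2 was lower in the isoflurane experiment by 0.36 log2 units (adjusted p = 0.0232), the only one of 31 members called, against 11.1% of all features (7.53% higher and 3.56% lower). With BDCM, Qars1 was higher by 0.38 (adjusted p = 0.00934) and Vars2 by 0.35 (adjusted p = 0.0166) in the isoflurane experiment, against 17.1% of all features (11.8% higher and 5.25% lower). The Nars2 call was lost without oil animal 1 or 2 of the CO2-O2 experiment or oil animal 1 or 2 of the isoflurane experiment, and the count among BDCM rats was 4 without CO2-O2 animal 2.

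Genes that work beside the synthetases were read in the same fit, again in the mean of both experiments and beside the 17.7% of features called higher and 20.4% called lower. All 3 scaffold genes of the multi-synthetase complex rose, Aimp1 and Aimp2 by 0.33 and Eef1e1 by 0.32 log2 units (adjusted p = 0.0114, 0.0153 and 0.00109). Eef1e1 read 1.28, 1.24 and 1.13 with oil and 1.52, 1.57 and 1.60 with BDCM under CO2-O2, then 0.95, 0.95 and 0.91 with oil and 1.20, 1.34 and 1.14 with BDCM under isoflurane, with no overlap. Of 5 tested elongation factor genes, grouped here as delivery factors, 4 rose, the cytosolic Eef1g by 0.85, Eef1b2 by 0.78, Eef1a1 by 0.68 and Eef1d by 0.61. Tufm, the mitochondrial elongation factor, gave -0.07 (adjusted p = 0.441). Tsfm, the other mitochondrial member of that list, had no matched probe.

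Genes of the other tRNA lists moved less evenly. Of 22 tested genes for tRNA maturation and export 5 rose and 6 fell, with a median of 0.05. Rpp38, a protein of ribonuclease P and MRP, rose by 1.16, Rpp25, another such protein, fell by 0.94, and Hsd17b10, a subunit of the mitochondrial enzyme that trims tRNA ends, fell by 0.54. Of 18 tested genes for RNA polymerase III and its factors, which transcribe tRNA genes, 3 rose and 1 fell, with a median of -0.01. Of 9 tested genes for tRNA-dependent amino acid conversion and proofreading 4 rose and 2 fell. The largest were Ankrd16, a cofactor of alanine proofreading, which fell by 0.54, Qrsl1, a subunit of the mitochondrial glutamine amidotransferase, which rose by 0.32, and Sepsecs, which makes selenocysteine on its tRNA and fell by 0.28.

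The amino acid response list, made of ATF4 targets and regulators, had the widest range. Of 27 tested genes 17 rose and 3 fell, with a median of 0.63. Pycr1, a proline synthesis enzyme, rose by 6.36 log2 units, Trib3, a pseudokinase, by 4.44 and Nupr1, a stress-induced transcriptional regulator, by 4.26. The 3 that fell were Ddit4, Psat1 and Herpud1, which were named because so few fell, by 0.83, 0.53 and 0.37. TGATGNAA was held by 6 of the 25 genes of this list with a window (24%). Among genes with a window it was held by 0 of 3 scaffold genes and 0 of 5 delivery factor genes. The same was true of 0 of 11 conversion and proofreading, 0 of 14 tRNA maturation and 0 of 15 RNA polymerase III genes. Of the 4 kinases of eIF2 alpha, Eif2ak4, which senses uncharged tRNA, rose by 0.30 (adjusted p = 0.011), and the other 3 did not pass, with values up to 0.12. The lists were chosen with earlier results of these data known, so their counts are descriptions.

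**Figure D5:**
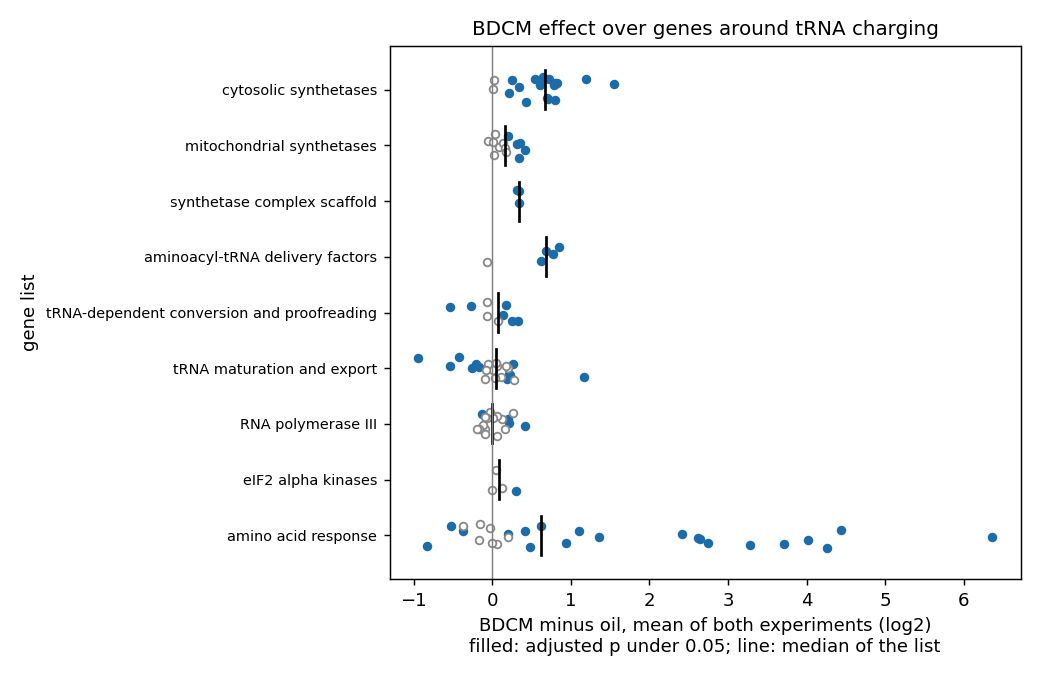
Log2 difference between BDCM and oil rats (mean of both experiments, horizontal axis) for each tested gene of 9 lists around tRNA charging, with filled points past an adjusted p of 0.05, and a vertical bar at the median of the list. The cytosolic synthetases (median 0.68) and the delivery factors (median 0.68) stand to the right of the mitochondrial synthetases (median 0.16), the RNA polymerase III genes (median -0.01) and the tRNA maturation genes (median 0.05), and the amino acid response list reaches 6.36.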

How the data were processed

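Intensity values were extracted by the authors from the scans with Agilent Feature Extraction, version 10.7 according to the notes of the submitters and 10.7.1.1 per the file headers, without scaling of one array to another. The authors' value table is a linear ratio to each array's 75th percentile, not centred (medians 0.0999 to 0.112). Its CO2-O2 columns match other animals of the same group, so it served as an alternative only. Here, log2 processed signals minus each array's 75th percentile (1079.5 to 1476.5 intensity units) entered a limma model (version 3.58.1, R 4.3.3) of 1 mean per group over 12 arrays, with 8 residual degrees of freedom. Of 49397 features, 34218 were kept as well above background throughout at least 1 group. The 1319 control spots, 84 spike-in probes and 54 outlier values were left out. Each array had 67.4 to 72.5% of its 61657 probes well above background and 0 to 6 saturated, and the number of arrays limits the precision. Of 33356 probes with an accession, 27460 matched 1 symbol in RefSeq (GRCr8), and no coordinates were taken from the array annotation (rn4). The brightest probe stood for a gene, and 24 members had several. The fits were tested on simulated data. Other tools were data.table (version 1.17.8), Python 3.11.15, pandas 2.3.3 and matplotlib 3.10.9. Replicates are separate animals, per the labels.

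The members and lists were chosen with earlier results of these data known. Values of every animal are given for the 8 largest and 4 lowest (signed) mean effects, cytosolic members that did not pass and the 3 widest pairs. Of each other list the 3 largest called effects and all scaffold genes are named, apart from items not reported here. Yars2 and Eef1e1 by animal were added after their values were seen. Alternatives changed scaling, background, filter, probes, model, blocks and thresholds, and left out each animal in turn.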

Additional observations from a re-analysis of the deposited data

Results flagged for a closer look

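Hars1, the cytosolic histidine synthetase gene, drew attention because its BDCM animals moved in opposite directions in the 2 experiments. Under CO2-O2 all 3 lay below the oil mean, at -0.13 to -0.04 (mean -0.08), and under isoflurane all 3 lay above it, at 0.03 to 0.24 (mean 0.11). The difference of effects was 0.19 log2 units and did not pass (adjusted p = 0.935, limma). Samples overlapped in both experiments.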

How the results depend on the processing

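In the 3 comparisons of BDCM with oil (each experiment and their mean), the direction of every member that passed held under every alternative run, with 0 reversals. In the mean of both experiments, where each member had 28 alternatives, 836 of 868 values kept their side of the threshold, 27 lost a call and 5 gained one, and the sign of 14 values that did not pass differed. The replicate block and the block by value table number group the same animals. They are the same fit, entered in these counts under both names. The count of 16 cytosolic genes higher stayed within 1.5 times in all 30 alternatives and was 15 to 16 on leaving out each animal. The count of 0 for the difference of effects was 0 in all 30. The normexp alternative used the median signal of each spot.

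Counts that moved by over 1.5 times are given here, with the range on leaving out each animal. Under CO2-O2 the 12 members called became 2 with a fixed slide block, 5 with a fixed scan day block, 6 with the replicate block, 6 with the block by value table number (the same fit), 3 at an adjusted p of 0.01 and 7 with a 1.5-fold minimum added (3 to 15 on leaving out each animal). The 11 cytosolic genes became 2, 5, 5, 5, 3 and 7 under the same settings (3 to 14). The 1 mitochondrial gene became 0 under the slide and scan day blocks, both thresholds, no filter on dim probes, the groups compared alone and without both isoflurane animals of high Alb, and 2 with array weights or a robust trend (0 to 1). Under isoflurane 19 members became 9, and 15 cytosolic genes became 8, with the slide block (14 to 19 and 13 to 16), and 4 mitochondrial genes became 1 with it, at either threshold and without both animals of high Alb, and 2 with either replicate block (1 to 4). In the mean, 21 members became 11 with a 1.5-fold minimum (20 to 21), and 5 mitochondrial genes became 3 with the mean of the probes and without both animals, 2 with either replicate block, 1 at an adjusted p of 0.01 and 0 with a 1.5-fold minimum (5 to 5). The 1 member called between oil controls became 3 with median scaling, 2 with a robust trend, 4 with array weights, and 0 at either threshold and without both animals (0 to 1). The 2 called between BDCM groups became 0 with the groups compared alone, 1 at an adjusted p of 0.01 and 0 with a 1.5-fold minimum (2 to 4). The thresholds are stricter by construction. With a fixed slide or scan day block, the CO2-O2 effects rest on BDCM animal 2 and the 3 oil animals. Both blocks give the same CO2-O2 effects and are not separate checks of them. The cause of the other shifts was not tested.

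For the 2 comparisons between experiments, blocks by slide, by scan day or by replicate number within an experiment give no value, since each lies inside 1 experiment. With a replicate block by number across experiments, their counts were 1 and 2. The replicate numbers do not pair the animals: deviations of same-numbered animals correlated at -0.02 to 0.05, so the replicate block stands here for completeness. Leaving out both isoflurane animals, the block by value table number and the block by number across experiments were chosen after seeing the data. In the mean, besides Tars1, calls were lost for Ears2 in 5 alternatives, Qars1 and Rars2 in 3 each, Sars2 and Wars2 in 2 each and Kars1 in 1. For Ears2, Rars2 and Sars2 these hold both the replicate block and the block by value table number, which are the same fit. The number of arrays limits what could be called, and no member was near background.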
